A study of Homo sapiens with 16 samples.

Results

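Small nucleolar RNAs (snoRNAs) and small Cajal body RNAs (scaRNAs) were followed through a sequencing screen for pseudouridine, as every position whose annotated gene has one of these 2 biotypes, of any base. There were 1887 such positions, 0.262% of the 719918 listed in the study's 10 tables. Positions with an identical surrounding sequence were counted once, which left 1352 sequences in 131 genes. Genes named SNORD (box C/D) held 1100 of these sequences in 86 genes, SNORA (H/ACA) 179 in 21 genes and SCARNA 42 in 8 genes. The other 31, in 16 genes, carry only an Rfam family number or an identifier as their name.

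Box C/D snoRNAs carry boxes C and D, are bound by fibrillarin, NOP56, NOP58 and SNU13, and mostly guide 2′-O-methylation. H/ACA snoRNAs end in an ACA box, are bound by dyskerin (DKC1), NHP2, NOP10 and GAR1, and guide the change of uridine (U) to pseudouridine, while scaRNAs guide modification of spliceosomal RNA in Cajal bodies. U3 (SNORD3) and U13 (SNORD13) are box C/D RNAs that act in the processing of ribosomal RNA precursors rather than as ordinary methylation guides. Most other snoRNAs are cut from introns of host genes, and they have no poly(A) tail of the mRNA type.

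RNA came from 2 cell lines: HEK293T, a human embryonic kidney line, and HCT116, a human colorectal carcinoma line, both labelled wild type. HCT116 cells with DKC1 knocked down formed the remaining population, called HCT116-shDKC1 here, and the labels do not say whether that line is 1 clone or how long the knockdown lasted. Polyadenylated RNA of all 16 libraries was fragmented and ligated to a 3′ adapter, and CMC, a carbodiimide that leaves an adduct on pseudouridine at which reverse transcription stops, was added to the CMC+ libraries. Terminator, which degrades RNA molecules carrying a 5′ monophosphate, was used in a further set that also received CMC and a 5′ adapter, per the labels, so the comparison with CMC- libraries changes CMC, the exonuclease and the library steps together. Each of the 8 groups had 2 replicates: CMC-, CMC+ and CMC+ with Terminator for HEK293T and for HCT116, and CMC- and CMC+ with Terminator for HCT116-shDKC1. The labels do not say that replicates came from separate cultures, so p-values measure only the spread between these samples, which may be technical.

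Library totals ranged from 8.65e+06 to 3.13e+07 reads. Of 7 genes taken as markers of HCT116, 6 (KRT8, KRT18, KRT19, EPCAM, CDH1 and CLDN4) were listed in CMC- libraries of HCT116 and of HCT116-shDKC1, and 1 (KRT18, at 2 positions) in HEK293T, while LGALS4 was listed in none. Of 7 taken as markers of HEK293T, 6 were listed in HEK293T, 2 in HCT116 and 3 in HCT116-shDKC1. VIM was listed at 925 positions in HEK293T and at 0 in the other 2 populations, whereas TUBB2B was listed at 15 in HEK293T and at 26 in HCT116, STMN1 at 95 and 14, and PAX2 at 0 in HEK293T and 1 in HCT116-shDKC1. Of 5 markers of other tissues 0 were listed. The targeted gene DKC1 was covered at only a few positions in HCT116 cells, and at none in all 4 Terminator tables. At X position 154762871 its CMC- covering reads were 8 and 11 in wild type and 5 in the 1 knockdown library that listed it. At X position 154762874 they were 14 in 1 wild-type library and 6 in 1 knockdown library. At both positions the knockdown value was the lower one, but so few reads do not check the label, and they were not tested.

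The sequences below are the positions on which the results turn. Each is printed 5′ to 3′ in DNA letters as in the deposited tables, with the measured position in capitals and up to 14 bases either side. U3 is shown at both ends because most of the called positions lay there, SNORD135 and the RF00345 gene as called positions within introns, and SNORA109, SNORD141B and SNORD140 because the bases printed here also occur in other RNAs.
SNORD3A U8: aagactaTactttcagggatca
SNORD3A U12: taagactatactTtcagggatcatttc
SNORD3A U135: tttctggcgttgctTggctgcaactgccg
SNORD3A U181: ttcttctctccgtaTtggggagtgagagg
SNORD135 U22: gtgatggagagcaaTacccggggatgact
RF00345 gene (ENSG00000281010.1) U24: gaattgctttgactTctgacacctcgtat
SNORD104 A22: tgacattccaattaAagcacgtgttagac
SNORA109 A79: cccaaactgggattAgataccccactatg
SNORD141B U22: aaggatgttcgtcgTggcaacgttgctgg
SNORD140 C70: ggcttttggtctccCtgggagtgggtgga

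Numbers after a base count nucleotides from 1 at the annotated 5′ end of the RNA, and coordinates are on hg38. SNORD3A lies on chromosome 17, plus strand, with U8 at position 19188023, U12 at 19188027, U135 at 19188150 and U181 at 19188196, and no other gene was annotated there on that strand. SNORD135 lies on the minus strand in an intron of TNPO2 (chromosome 19, U22 at 12703650) and SNORD104 on the plus strand in an intron of SNHG25 (chromosome 17, A22 at 64146104). The RF00345 gene lies on the minus strand in an intron of SNHG19 (chromosome 16, U24 at 2155081). SNORA109 is on the minus strand of chromosome X (A79 at 55183529), SNORD141B on the minus strand of chromosome 5 (U22 at 14652361) and SNORD140 on the minus strand of chromosome 22 (C70 at 41073652). The gene copies of U3 differ near their ends in where the annotation begins, so 1 nucleotide of U3 can count as more than 1 sequence.

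The members were richer in U than the tables as a whole, at 38.2% against 32.2% of distinct sequences. Windows of 31 bases around SNORD positions held CTGA, the letters of box D, in 36.1% of cases, against 15.0% of all windows in the tables. They held TGATGA, the letters of the core of box C, in 20.2% against 1.30%. Windows around SNORA positions held ACA in 39.6%, against 33.9% of all windows. Only the strand of the transcript was searched, and a match describes the letters and is no proof of a box. Of the 1352 sequences, 544 lay in an exon of another gene on the same strand, 453 in an intron and 355 in neither.

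Many of the sequences are not unique to a snoRNA. Of the 1187 windows with at least 25 bases, 163 occurred exactly in a protein-coding transcript of GENCODE 29 and 24 in a mitochondrial rRNA. SNORD141B shared 47 windows, of its 54 sequences, and SNORD141A 14 with EEF1A1, a translation elongation factor mRNA. SNORD118 (U8) shared 40 with TMEM107, SNORD95 24 with RACK1, SNORD140 23 with ACTB, the cytoskeletal actin, and SNORA10B 9 with RPS2. All 24 windows shared with mitochondrial rRNA belonged to SNORA109, of its 45 sequences, and they lay in MT-RNR1, the small mitochondrial rRNA. A further 438 windows occurred in another noncoding or processed transcript, often a host gene such as SNHG1, and 562 had no such match.

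For 100 sequences the tables listed the other locus as well, so that reads at both could be set side by side. At SNORA109 A79 the covering reads were 1047 in HCT116 CMC- replicate 2 and those at the same bases of MT-RNR1 (chromosome M position 1078) were 3979. The stop percents there, 4.58 and 4.07, were close. Over the tables with whole read counts, covering reads at SNORA109 were a median of 29.8% of those at MT-RNR1, with a range of 22.9 to 40.3% over 21 positions. Covering reads at SNORD141B were a median of 75.1% of those at EEF1A1, with a range of 2.75 to 88.9% over 35 positions. At SNORD140 they were 80.2% of those at ACTB over 23 positions. At these shared bases, reads of the snoRNA and of the other RNA cannot be told apart.

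The listed sequences were spread unevenly over genes. SNORD3A alone accounted for 149 of the sequences, SNORD141B for 54, SNORD13 for 52, SNORD104 for 46 and SNORA109 for 45. In HCT116 CMC- libraries of the Terminator tables the listed SNORD positions had a median of 234 and 268 covering reads, and the SNORA positions 714.5 and 817. In the HEK293T CMC- libraries the SNORA positions had a median of 34.7 and 37.2. SNORA109 held each of the 5 most covered SNORA positions of these HCT116 tables. The HEK293T and HCT116 Terminator tables count reads differently, in fractions and in whole reads, so these levels are not compared between the lines. SCARNA positions were sparse, with at most 1 listed in any HCT116 or HCT116-shDKC1 Terminator table, and 17 and 13 in the HEK293T Terminator tables. SCARNA2 U101 (chromosome 1, 109100293), in a guide RNA of Cajal bodies, had stop percents of 10.2 and 9.17 without CMC and 18.3 and 26.3 with CMC and Terminator in HEK293T, from 2.33 to 6.08 stop reads per library.

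Counted by the chosen copy of each sequence, 107 genes were listed in HEK293T, 83 in HCT116 and 60 in HCT116-shDKC1, with 47 listed in all 3 populations. By class, SNORA genes numbered 20 in HEK293T, 10 in HCT116 and 5 in HCT116-shDKC1, and SNORD genes 74, 62 and 46. The populations had 4, 4 and 2 treated libraries, and a position had to hold at least 5 treated and 1 control stop reads to be listed. A gene that is absent is therefore not shown to be unexpressed, and in bulk RNA fewer cells and less RNA per cell cannot be told apart. Many sequences were seen seldom. By the 1 gene copy chosen to stand for each sequence, 600 were listed in 1 treated library and 4 in all 10. Those 4 were U72, U73 and U76 of SNORD13 and U24 of the RF00345 gene in SNHG19.

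The stop percent is the share of covering reads that end at a position. Log2 changes are given ± an SE, which is the change divided by the square root of its edgeR F statistic. Where stop reads are few, this SE is smaller than the p-value implies and overstates precision. With CMC alone, SNORD13 U73 (chromosome 8, 33513547) rose in HCT116. There the stop percent was 5.57 and 5.95 in the control columns and 19.9 and 14.8 with CMC, with no overlap, a log2 change of 1.53 ± 0.15 (SE, edgeR, adjusted p 0.00971). In HEK293T it was 8.5 and 7.46 without CMC and 22.1 and 15.9 with it, a change of 1.19 ± 0.22 that did not pass the adjustment (adjusted p 0.0792, edgeR). The control columns of the HCT116 tables without Terminator held the same stop reads as the same-numbered HCT116 CMC- library at 96.7% and 96.3% of compared positions. In every table a position is listed only if its treated stop ratio is not below its control, so a rise over CMC- is part of how positions were chosen. Each count against CMC- below is read beside the share of all tested positions called the same way.

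SNORD3A U12, near the 5′ end of U3, was the other position called with CMC alone in HCT116. Its stop percent was 6.37 and 11.1 in the controls and 31.3 and 26.9 with CMC, a log2 change of 1.72 ± 0.25 (edgeR, adjusted p 0.0483). A position was called where its adjusted p was below 0.05 and its change at least 2-fold. Of 142 sequences listed in both HCT116 tables without Terminator, 39 had enough stop reads to be tested, and these 2 were called higher and 0 lower, against 1.65% of all 20660 positions tested. Both were among the 16 tested U, where 4.45% of all tested U were called, and 0 of 23 other bases were called, against 0.528% of all. The median log2 change of the 39 was 0.22, against 0.20 over all positions. DESeq2 called 0 of the 39 and 0 of all 20660, and 2 of the 39 had an unadjusted p under 0.05 with edgeR. The SNORD13 call was lost without CMC+ replicate 1 or without control replicate 2, and 0 were then called. SNORD3A U12 was lost without either control replicate, and was not testable without either CMC+ replicate.

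In HEK293T, CMC alone gave no call among the snoRNA positions. Of 41 sequences listed in every table of HEK293T, 16 were tested, 15 SNORD and the RF00345 gene, and 0 were called either way by edgeR, where 1.41% of all 14824 positions were called higher and 0.00675% lower. DESeq2 also called 0, and 4 of the 16 had an unadjusted p under 0.05 with edgeR, each of them higher. By base, 0 of 14 U and 0 of 2 others were called, against 3.39% and 0.122% of all. The largest change was at U24 of the RF00345 gene, where the stop percent was 5.52 and 6.59 without CMC and 21.2 and 28.8 with it. These groups did not overlap, which the rule for listing positions favours, but the log2 change of 1.94 ± 0.26 (SE) had an adjusted p of 0.220 (edgeR). It rests on 2 stop reads in each control library, and the SE is too small at such counts.

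With CMC and Terminator, 5 of the 16 HEK293T sequences were called higher than without CMC and 0 lower, against 12.3% of all tested positions higher. They included U24 of the RF00345 gene, SNORD118 U107, SNORD135 U47 and SNORD13 U73. All 5 were among the 14 tested U, where 17.8% of all tested U were called, and 0 of 2 other bases were called, against 8.76%. The median log2 change was 0.95 over the 16 and 0.53 over all positions. At U24 of the RF00345 gene the stop percent was 32.1 and 40.2 with Terminator, far above the 5.52 and 6.59 of the controls, a log2 change of 2.53 ± 0.24 (SE, edgeR, adjusted p 0.00182).

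SNORD118 is the U8 RNA, a box C/D RNA of ribosomal RNA processing, and U107 (chromosome 17, 8173481) lies within an exon of TMEM107, so its reads may belong to either. Its stop percent was 3.23 and 3.10 without CMC, 8.24 and 8.01 with CMC and 15.7 and 11.7 with Terminator. The log2 change with Terminator was 2.12 ± 0.22 (edgeR, adjusted p 0.00146). The 3 treatments were separated at this position, with no overlap between any of them. The rise over CMC- was part of how positions were listed.

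SNORD135 U47 (chromosome 19, 12703625) had stop percents of 5.45 and 2.55 without CMC, 12.3 and 7.27 with CMC and 17.3 and 10.4 with Terminator. Its 2 replicates differed in level under each treatment, replicate 1 being the higher, and the log2 change with Terminator was 1.77 ± 0.20 (edgeR, adjusted p 0.00715). The call at U47 was lost without CMC- replicate 1 (1.97) or 2 (1.65), and that at U24 of the RF00345 gene without CMC- replicate 2 (2.47). At SNORD13 U73 the values with Terminator were 23.8 and 28.1, a log2 change of 1.71 ± 0.19 (edgeR, adjusted p 0.00198). DESeq2 called 0 of the 16, and fewer were called without Terminator replicate 2 (2), without CMC- replicate 1 (3) or without CMC- replicate 2 (2).

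The comparison of Terminator with CMC alone in HEK293T is not fixed by how positions were listed. Of the 16 sequences 0 were called either way by edgeR, against 0.897% of all tested positions higher and 0.00675% lower. DESeq2 called 0, and 1 of the 16 had an unadjusted p under 0.05 with edgeR. By base the counts were 0 of 14 U, against 1.25% of all U, and 0 of 2 others, against 0.668%. The changes ran from -0.36 to 1.04 log2, with a median of 0.44, against 0.22 over all positions. SNORD13 U73 had a change of 0.51 ± 0.16 (edgeR, adjusted p 0.433). Scaled by TMM on the stop reads instead of by covering reads, 5 of the 16 were called lower with Terminator, and of all 14824 positions 541 lower and 121 higher.

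**Figure D1:**
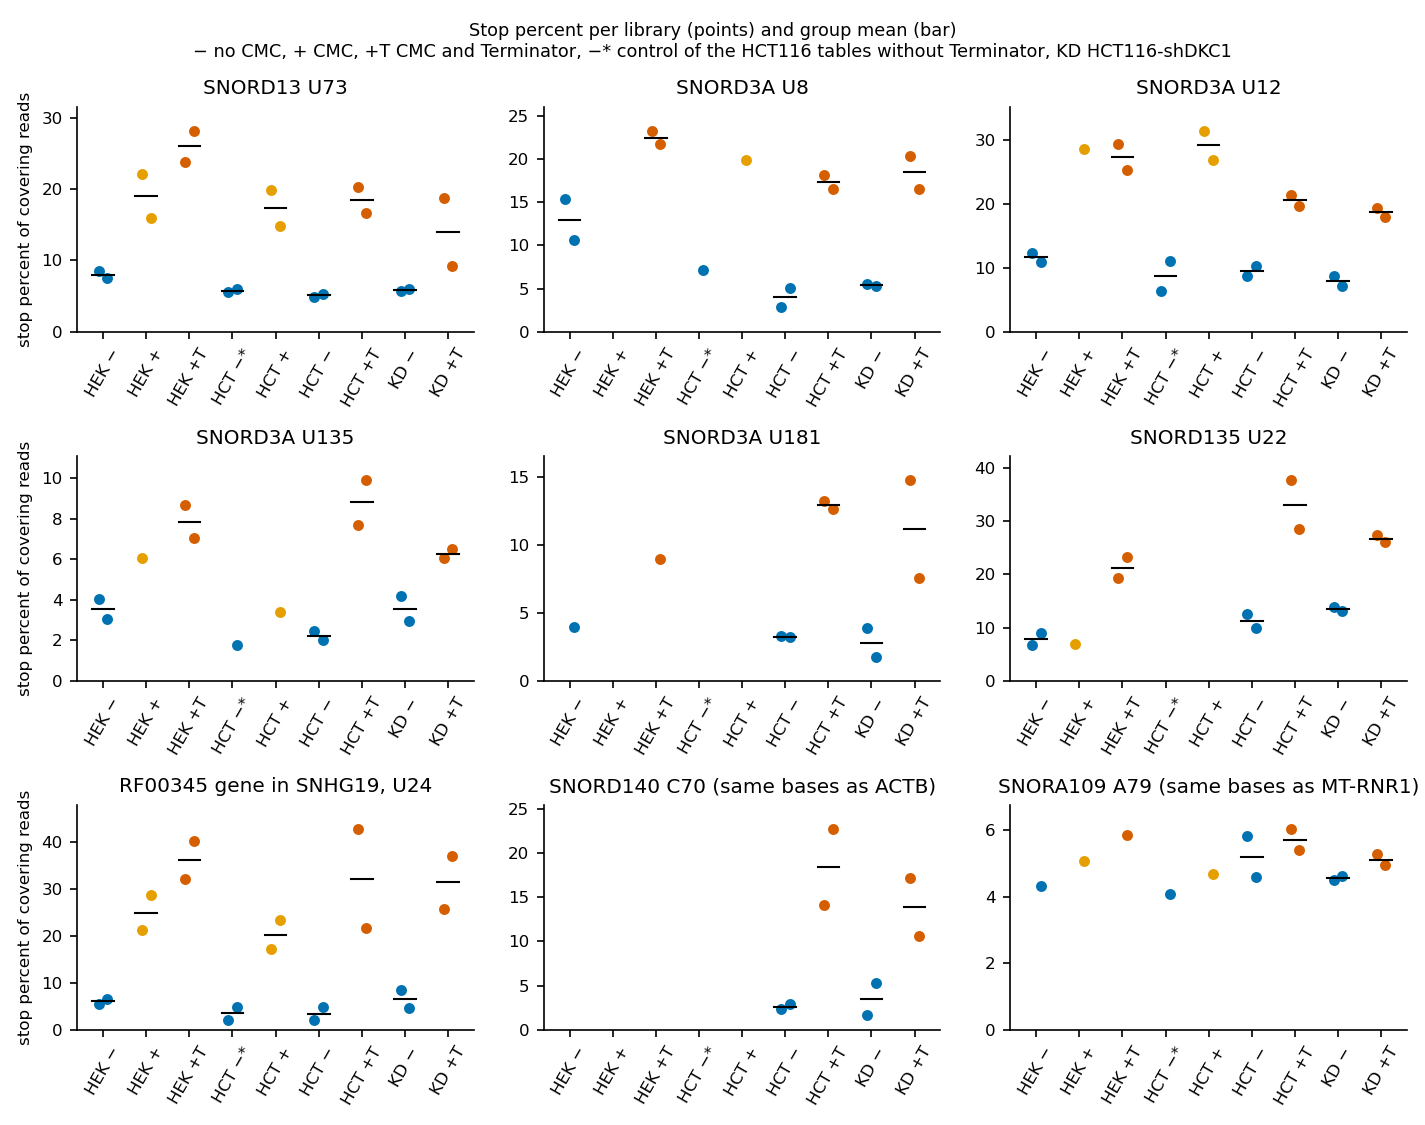
Stop percent (vertical axis, each panel from 0 on its own scale) of 9 named positions in every library that listed them; points are libraries, bars are means of 2 replicates, blue is no CMC, yellow CMC and orange CMC with Terminator. At SNORD13 U73 every treated library, from 9.21 to 28.1, lies above every control, the highest of which is 8.5, while at SNORA109 A79 treated and control libraries lie close together. Listing required each treated ratio not to be below its paired control.

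The plot of stop percent by library shows the same positions in the 3 populations. U24 of the RF00345 gene ran from 2.04 to 8.47 in the control libraries and from 17.2 to 42.9 in treated ones, with no overlap in any population. A treated ratio below its control would not have been listed, so part of this separation was fixed in advance. U24 had too few stop reads for the HCT116 Terminator test under the filter. SCARNA28 A3 (chromosome 7, 98881698), where MIR3609 and TRRAP are also annotated, behaved differently: 73.7 to 100% of its 5 to 19 covering reads ended there in every library that listed it, with or without CMC. It was the 1 SCARNA position tested in HCT116 with CMC alone, with a log2 change of 0.12 ± 0.14 (edgeR, adjusted p 0.909).

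In HCT116 with CMC and Terminator the called positions were mainly those of U3. Of 78 sequences listed in all 4 tables of HCT116 and HCT116-shDKC1, 65 were tested, and 17 were called higher in wild type and 0 lower, against 24.9% of all 26153 positions higher. All 17 were SNORD, of 53 tested, while 0 of 12 SNORA were called. Those 12 were all in SNORA109, and U56, A57 and G63 among them had no exact match in MT-RNR1. U3 genes (SNORD3A to SNORD3D) gave 13 of the 17, from 31 tested. By base, 11 of 36 U were called, against 27.0% of all U, and 6 of 29 others, against 23.7%. The median change was 0.62 log2, against 0.64 over all positions, and was 0.71 for SNORD and 0.42 for SNORA. The count over all 65, the shares by base and the median over all 65 were near the background. The share called in U3 was above the 24.9% and that in SNORA below it, and neither difference was tested. Of the 22 tested sequences that occur in an mRNA or mitochondrial rRNA 1 was called, and of the other 43, 16 were called.

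Within SNORD3A the called positions fell at the 5′ end (A7, U8 and U12), at U134 and U135, and at A180, U181, U182 and G192. The positions tested between U182 and G192 were not called. Among the called, A180 (1.20 log2) and G192 (1.05 log2) fall outside the rule for named positions and were chosen after their values were seen. At SNORD3A U8 the stop percent was 2.86 and 5.08 without CMC and 18.1 and 16.6 with Terminator, a log2 change of 2.09 ± 0.29 (SE, edgeR, adjusted p 3.7e-05). The neighbouring A7 had 0.971 and 2.65 without CMC and 8.06 and 10.7 with Terminator, a change of 2.30 ± 0.38. U12 had 8.66 and 10.2 and rose to 21.3 and 19.7, a change of 1.11 ± 0.20. It was under 2-fold without replicate 1 of either group, at 0.95, and A180 was not called when any 1 of the 4 libraries was left out. In A7, U8 and U12 the treated and control libraries did not overlap, which the rule for listing positions favours.

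At SNORD3A U135 the stop percent was 2.43 and 2.02 without CMC and 7.69 and 9.90 with Terminator, a log2 change of 2.00 ± 0.23. At U134 it was 2.26 and 2.43, and then 7.69 and 6.21, a change of 1.54 ± 0.24. At U181 it was 3.28 and 3.21, and then 13.2 and 12.6, a change of 1.98 ± 0.19, the replicates of each group lying close together. At U182 the change was 1.81 ± 0.23. The same nucleotides recurred in the other gene copies, SNORD3B-1 U8 at 2.12, SNORD3C U12 at 1.07, SNORD3D A7 at 2.41 and SNORD3D U8 at 1.38 log2, and reads of these near-identical copies may be counted at more than 1 of them. Both SNORD3D calls were lost when any 1 of the 4 libraries was left out, and G192 of SNORD3A and U12 of SNORD3C without replicate 1 of either group, at 0.83 and 0.92. With each U3 nucleotide counted once, 9 of 26 were called, and 13 sequences in all.

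**Figure D2:**
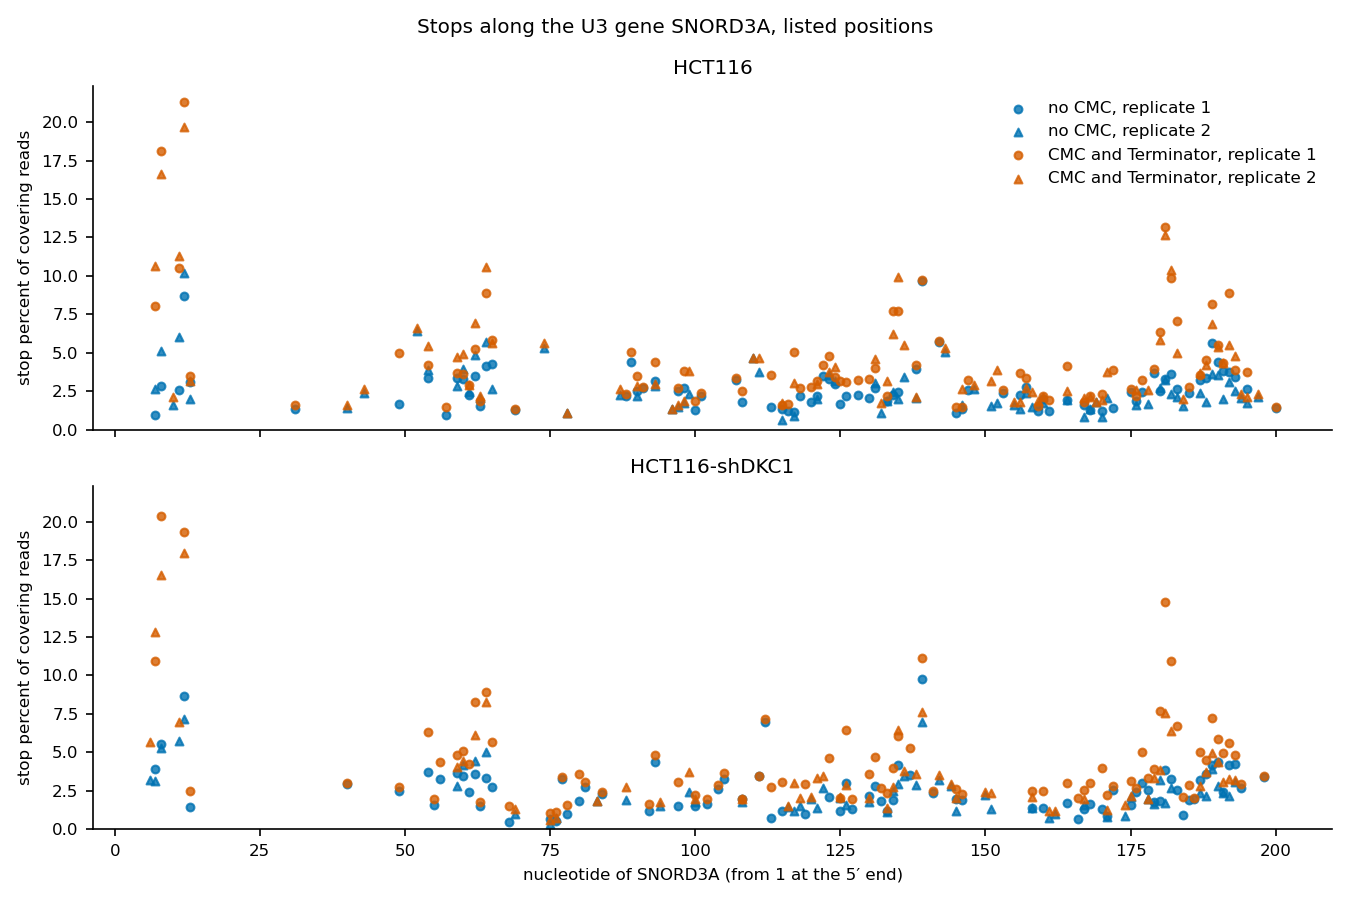
Stop percent (vertical axis) along SNORD3A (horizontal axis, nucleotide from 1 at the 5′ end) at every listed position, for HCT116 (top) and HCT116-shDKC1 (bottom); blue is no CMC, orange CMC with Terminator, circles replicate 1 and triangles replicate 2. In both populations the highest treated values lie at U8 and U12, up to 21.3 in wild type and 20.4 in the knockdown, followed by a group at U181.

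The profile of stops along SNORD3A covers 57 to 82 listed positions per Terminator table of these populations, and its median stop percent without CMC was between 2.09 and 2.43. Outside U3, SNORD135 U22 had 12.5 and 10.0 without CMC and 37.8 and 28.6 with Terminator, a log2 change of 1.53 ± 0.29 (edgeR, adjusted p 0.0052). That call was lost when any 1 of the 4 libraries was left out, at 1.49 to 1.57. SNORD104 G34 had 6.17 and 3.94 and then 8.54 and 13.9, a change of 1.18 ± 0.35 (edgeR, adjusted p 0.0275), which fell to 0.46 without replicate 2 of either group and was then not called. SNORD13 U73 had 4.93 and 5.35 and then 20.3 and 16.7, a change of 1.81 ± 0.27. It was the 1 position called with Terminator in both cell lines, of 3 tested in both.

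SNORD140 C70 showed the largest change, with 2.34 and 2.88 without CMC and 14.1 and 22.7 with Terminator, a log2 change of 2.76 ± 0.42. The same bases of ACTB (chromosome 7, 5527229) had 1.97 and 2.94 and then 11.5 and 18.3. The snoRNA locus had 128 and 139 covering reads in the controls and ACTB 152 and 170. The position is a C, and its reads cannot be assigned to either RNA. SNORA109 A79, on bases of MT-RNR1, had 5.84 and 4.58 without CMC and 6.04 and 5.41 with Terminator, a change of 0.14 ± 0.16 (edgeR, adjusted p 0.562). That was the smallest wild-type change of the 12 SNORA109 positions. The largest was at U56, with no exact match in MT-RNR1, at 0.68 ± 0.17 (edgeR, adjusted p 0.0165), under 2-fold. In the knockdown the largest was at A57, 0.63 ± 0.17 (edgeR, adjusted p 0.0161), also under 2-fold. U56 and A57 fall outside the rule for named positions and were chosen after their values were seen. DESeq2 called 10 of the 65, and without Terminator replicate 1 or CMC- replicate 1, 10 were called.

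Under DKC1 knockdown the same treatment called 14 of the 65 higher and 0 lower, against 19.7% of all positions higher. Again all were SNORD, with 9 of 31 in U3 and 0 of 12 in SNORA. By base, 8 of 36 U were called, against 21.9%, and 6 of 29 others, against 18.4%. The median change was 0.61 log2, against 0.57 over all positions. Of the 17 called in wild type and the 14 in the knockdown 11 were shared, 64.7% of the first and 78.6% of the second. Over all positions 4020 were called in both, 61.7% and 78.0% of those called, so the snoRNA shares are near the background.

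SNORD3A U8 had 5.56 and 5.26 without CMC and 20.4 and 16.5 with Terminator in the knockdown, a log2 change of 1.74 ± 0.25. U12 had 8.63 and 7.14 and then 19.4 and 18, a change of 1.25 ± 0.21. U181 had 3.85 and 1.71 and then 14.8 and 7.57, a change of 2.01 ± 0.20, with replicate 1 higher in both groups. At each of these 3 the treated libraries lay above the controls in the knockdown as in wild type, which the rule for listing positions favours. A7 changed by 1.77 and U182 by 1.49 log2. In the other copies SNORD3B-1 U8 changed by 1.33, SNORD3C U12 by 1.17 and SNORD3D A7 by 1.5. SNORD3A G64 (chromosome 17, 19188079) had 3.32 and 4.99 and then 8.95 and 8.30, a change of 1.00 ± 0.18 (edgeR, adjusted p 0.000404). In wild type it had 4.11 and 5.71 and then 8.89 and 10.6, a change of 0.98 ± 0.18 (edgeR, adjusted p 0.000365) just under 2-fold. The calls at SNORD3B-1 U8 and SNORD3D A7 were lost when any 1 of the 4 libraries was left out, that at SNORD3A A7 without replicate 2 of either group (1.47) and that at G64 without replicate 1 of either group (0.73).

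SNORD104 gave the largest changes in the knockdown outside U3 and SNORD140. Its A22 had 5.74 and 7.41 without CMC and 18.9 and 18.3 with Terminator, a log2 change of 1.44 ± 0.27 (edgeR, adjusted p 0.00309), and 0.81 ± 0.31 in wild type (edgeR, adjusted p 0.150). Its G34 changed by 1.62 ± 0.36 log2. The A22 call was lost under 7 alternatives: DESeq2, library totals, TMM on stop reads and the omission of any 1 of the 4 libraries (1.29 to 1.70). The G34 call was lost under 5, the first 3 of these and the omission of replicate 2 of either group (1.24). SNORD140 C70 had 1.69 and 5.31 and then 17.2 and 10.7, and ACTB had 1.39 and 4.29 and then 16.3 and 10.1. The C70 change of 1.99 ± 0.42 fell to 0.99 without replicate 1 of either group and was then not called. SNORD13 U73 had 5.75 and 5.99 and then 18.8 and 9.21, a change of 1.16 ± 0.29 (edgeR, adjusted p 0.0141), and was not called without Terminator replicate 1 or CMC- replicate 1, at 0.61. In all, 8 were called without either of these libraries, and DESeq2 called 7.

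The difference in response between knockdown and wild type was tested as an interaction. Every tested position was listed in all 4 tables, so its treated ratio was not below control in the knockdown either. A position whose response was lost in the knockdown could drop out before the test, which the counts below cannot show. Of the 65 sequences 0 were called by edgeR, against 0 of 26153 higher and 0.0115% lower. DESeq2 called 0, and 2 of the 65 had an unadjusted p under 0.05 with edgeR, both lower in the knockdown. Of all 26153 positions 650 were lower and 23 higher at that level with edgeR. The 2 were SNORD3A U135, at -1.12 ± 0.32 log2 (SE, p 0.0105, edgeR adjusted p 1.00), and U134, at -1.05 ± 0.36 (p 0.0433, edgeR adjusted p 1.00). At U135 the treated stop percent was 6.06 and 6.48 in the knockdown against 7.69 and 9.90 in wild type, and the control was 4.19 and 2.94 against 2.43 and 2.02. At U134 the treated values were 3.95 and 2.73 against 7.69 and 6.21. At both, every treated knockdown library was below every treated wild-type library. These 2 positions are neighbours that can share reads and were picked by their p-values, so this is no separate support. The interaction at SNORD13 U73 was -0.65 ± 0.41, at SNORD135 U22 -0.57 ± 0.43 and at SNORD3A U181 0.03 ± 0.27. It was positive for 36 of the 65, with a median of 0.03, against -0.07 over all positions.

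**Figure D3:**
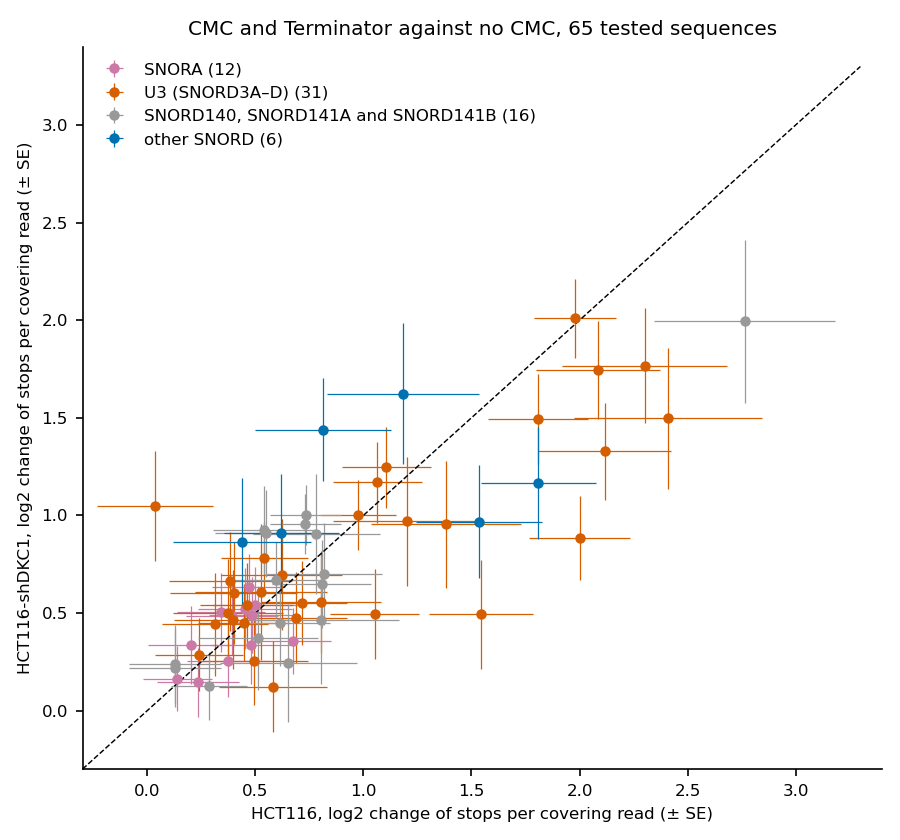
Log2 change of stops per covering read with CMC and Terminator against no CMC, for the 65 tested sequences. HCT116 is on the horizontal axis and HCT116-shDKC1 on the vertical axis. Bars are ± 1 SE, which is too small where stop reads are few, and the dashed line marks equal change. The 12 SNORA points lie between 0.14 and 0.68 in HCT116 and between 0.14 and 0.63 in HCT116-shDKC1. SNORD140 C70 is farthest right at 2.76, and SNORD3A U135 and U134 lie below the line.

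The plot of responses shows most sequences near equal change, and the standard errors of the interaction, from 0.22 to 0.65 log2, limit what could be seen. Where stop reads are few these errors are too small, so the true limit is wider. No SCARNA position could be tested, and the only H/ACA RNA tested was SNORA109. Whether H/ACA snoRNA positions in general respond differently under the knockdown was therefore not tested.

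Covering reads per gene in the CMC- libraries were compared between knockdown and wild type, as a measure of RNA level in these tables. The values were covering reads, but the positions summed were those listed in every Terminator table of HCT116 and HCT116-shDKC1. Stop reads therefore decided which positions and genes entered. A gene whose RNA fell strongly in the knockdown could drop out before the test, which the counts below cannot show. Of 20 snoRNA genes 0 were called at an adjusted p below 0.05 by edgeR, against 0.137% of 2185 genes higher and 0.595% lower. DESeq2 called 0. Before adjustment edgeR gave p under 0.05 for 1 gene that was higher and 1 that was lower. The lower one was SNORA73B, an H/ACA RNA measured at 1 position, with 28 and 58 covering reads in wild type and 29 and 30 in the knockdown, which overlap. Its log2 change was -0.59 ± 0.28 (SE, p 0.0446, edgeR adjusted p 0.680). The higher one was SNORD88C, with 35 and 49 against 51 and 75, a change of 0.52 ± 0.25 (p 0.0459, edgeR adjusted p 0.680). Single libraries moved both: SNORA73B was at -0.11 without HCT116 CMC- replicate 2 and -0.93 without replicate 1. SNORD88C was at 0.26 without HCT116-shDKC1 CMC- replicate 2, 0.74 without replicate 1 and 0.0080 in the Terminator libraries.

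U3 was nearly level. Covering reads of SNORD3A, summed over 21 positions that can share reads, were 9376 and 11940 in wild type and 10607 and 13288 in the knockdown. The log2 change was 0.10 ± 0.13. In wild type SNORD3B-1 had 8100 and 10125 and SNORD3B-2 8101 and 10124, so the genes tested are not all separate RNAs. SNORD13 changed by -0.19 ± 0.15 and SNORD140 by -0.32 ± 0.17, the latter being 0.11 in the Terminator libraries. SNORD104 had 601 and 765 covering reads, summed over 4 positions, in wild type and 528 and 879 in the knockdown. Its change of -0.02 ± 0.17 had no stable sign, at 0.27 without HCT116-shDKC1 CMC- replicate 1 and -0.39 without replicate 2. SNORA109, part of whose positions lie on bases shared with MT-RNR1, changed by -0.06 ± 0.12. Of 12 protein genes of the pathway 2 could be tested, NHP2 of the H/ACA particle at 0.16 ± 0.30 and SNU13, which binds box C/D RNA, at 0.06 ± 0.25, and neither passed. NHP2 was at -0.19 without HCT116-shDKC1 CMC- replicate 2 and SNU13 at -0.26 without HCT116 CMC- replicate 2. SNORA104, listed in both populations at 1 position that also occurs in ITGB1, was not tested. It had 1.39 covering reads per 1e+06 reads of the library in wild type and 0.645 in the knockdown.

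**Figure D4:**
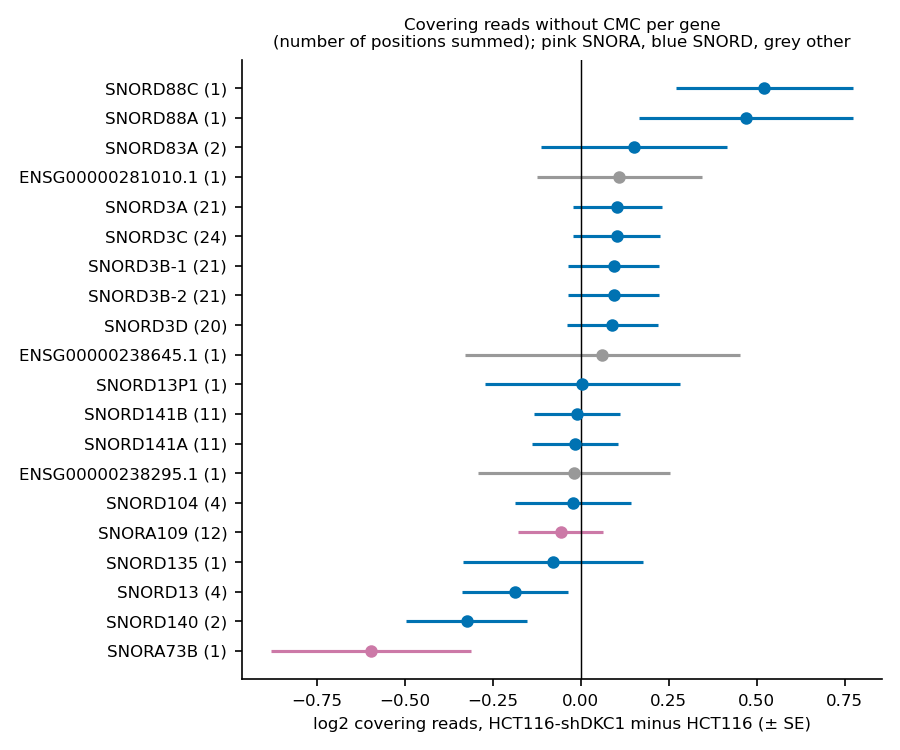
Log2 difference in covering reads of CMC- libraries, HCT116-shDKC1 minus HCT116 (horizontal axis, ± 1 SE), for the 20 snoRNA genes tested, with the number of positions summed in brackets; pink is SNORA, blue SNORD and grey genes named by identifier. SNORA73B is lowest at -0.59 and SNORD88C highest at 0.52, and the U3 genes lie near 0.1.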

How the data were processed

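Stops of reverse transcription were measured in 16 libraries, deposited as 10 tables that each set a treated library beside a control. The submitters' processing notes name cutadapt 2.8, STAR and the build hg38, and positions were called with rtsSeeker, per the name column in the file headers. How reads that match several places were counted is not given in the sources used here. The authors deposited whole read counts of stops and of covering reads for the HCT116 and HCT116-shDKC1 Terminator tables. For the other tables the authors deposited fractional values, treated as estimated counts and rounded. The authors' normalised stop reads (RPM) served only to recover library totals. In the deposited tables every position had at least 5 treated and 1 control stop reads and a treated ratio not below the control. The 2 remaining columns of per-sample values were not used.

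Stop reads were tested with edgeR 4.0.16 (R 4.3.3, quasi-likelihood) with covering reads as offset and the replicate number as a block, since each table pairs a treated library with a same-numbered control. Correlations of same-numbered deviations within a population were 0.0594 to 0.339 in HEK293T, 0.573 in the HCT116 tables without Terminator, and 0.154 and 0.321 in the Terminator tables. Between HCT116 and HCT116-shDKC1, which no label pairs, they were 0.0856 to 0.186 in the Terminator tables. Positions listed in all tables of a fit with at least 10 stop reads in 2 libraries were tested, with Benjamini-Hochberg adjustment over all of them, and the fits were tested on simulated data. Covering reads per gene were tested with edgeR after TMM scaling, without a block. DESeq2 1.42.0 was an alternative, as were other scalings, filters and each library left out. Windows of at least 25 bases were searched in GENCODE 29 transcripts with BLAST 2.17.0. Positions named are those called (the 12 largest changes of a comparison with more) and the 5 most covered of each class. Members and lists were chosen with earlier results of these data known. 1 called position is not reported here.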

Additional observations from a re-analysis of the deposited data

How the results depend on the processing

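With TMM on stop reads the counts called were 2 for HEK293T Terminator against CMC- (1 higher, 1 lower; of all positions 291 higher, 166 lower), 5 (all lower; 121 and 541) for Terminator against CMC+ and 0 for HCT116 CMC+ (45 and 12). For HCT116 Terminator the split was then 11 higher and 6 lower, and for HCT116-shDKC1 9 higher and 4 lower, beside 3307 and 1240, and 3209 and 1262, of all 26153 positions. DESeq2 called 0, 0, 10 and 7 for HEK293T Terminator against CMC-, HCT116 CMC+, HCT116 Terminator and HCT116-shDKC1 Terminator. Over all positions it called 345 in place of 1825, 0 in place of 340, 3850 in place of 6519 and 2785 in place of 5152. With all gene copies counted, 46 and 29 of 141 were called in HCT116 and HCT116-shDKC1. Without the replicate block HCT116 CMC+ gave 1 call, HCT116 Terminator 16 and HCT116-shDKC1 13. With 1 library left out, counts ran from 2 to 5 for HEK293T Terminator against CMC-, 0 to 1 for HCT116 CMC+, 10 to 17 for HCT116 Terminator and 8 to 14 for HCT116-shDKC1, a pair leaving the contrast with either of its libraries. The values below changed sign under at least 1 alternative: SNORD104 G34 in HCT116 (-0.059) and SNORD141B U4 in HCT116-shDKC1 (-0.24), both with TMM on stop reads, the gene coverage of SNORD140 (0.11) and SNORD104 (0.15) in Terminator libraries, of SNORD104 with library totals (0.036), without HCT116 CMC- replicate 2 (0.039) and without HCT116-shDKC1 CMC- replicate 1 (0.27, the lowest being -0.39), of SNORD3A (-0.030, the highest being 0.23) and NHP2 (-0.19, the highest 0.44) without HCT116-shDKC1 CMC- replicate 2, and of SNU13 without that library (-0.040) or HCT116 CMC- replicate 2 (-0.26, the highest 0.42). SNORD141B U4 lies outside the naming rule and was chosen after its values were seen. The cause of these changes was not tested. Of 617 values of 49 named results under alternatives, 495 kept direction and call, 111 lost the call and 11 changed sign. Counting U3 nucleotides once and leaving out shared bases were chosen after seeing the data, and gave 13 and 16 calls in HCT116 and 11 and 13 in HCT116-shDKC1. Few stop reads per library limit every value.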
